A study of Mus musculus with 6 samples.

Results

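Single liver nuclei were recovered by 2 preparations, named perfusion and liver tissue in the column names of the read table, and compared at 3 reproductive stages. All 6 libraries of the series belong to the comparison. It holds 783 nuclei of 3 perfusion libraries and 784 nuclei of 3 liver tissue libraries, 1567 in all, and every library was assigned by its own name. The animals were female wild-type C57BL/6J mice mated at about 8 weeks of age. Each preparation was sampled once at G0 and once at G14.5, both days of gestation, and once at P7L (postpartum day 7, lactating). All nuclei were labelled hepatocyte and sequenced with Smart-seq3xpress, a plate-based method that makes a separate full-length library from each picked cell or nucleus. The labels name no animal, so a library may come from 1 mouse or several, and every p-value below measures only the spread between these libraries. The labels give the same isolation text for all 6 libraries, a warm EGTA and collagenase perfusion with the portal vein cut to clear blood. They do not say how the liver tissue nuclei were obtained.

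Perfusion with a calcium chelator and collagenase loosens the liver into single cells and flushes the blood from its sinusoids. Immediate early genes such as Fos, Egr1 and Dusp1 are transcribed within minutes of a stimulus from factors already present in the cell, and warm enzymatic dissociation is a known stimulus for them. Metallothioneins, heat shock proteins and the targets of p53, NF-kB and NRF2 report other forms of stress. Hepatocytes are also zoned: those around the central vein make glutamine synthetase and bile acid and drug-metabolising enzymes, and those around the portal vein make glucose, urea and secreted proteins, so a preparation can sample the lobule unevenly. Stress genes, blood RNA, RNA of other liver cells and lobular position were therefore compared between the 2 preparations at matched stages.

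The 6 libraries held 184 to 308 nuclei and 226030591 to 379767336 reads. Perfusion nuclei had more reads at every stage, with medians of 1189260 against 740249 at G0, 1191576 against 1077017 at G14.5 and 974491 against 731494 at P7L. Hepatocyte identity held in both preparations: 14 hepatocyte genes took 1.74% to 2.04% of perfusion reads and 1.82% to 2.20% of liver tissue reads, and Alb, serum albumin, was between 3494 and 9474 CPM (reads of a gene per 1000000 reads of the library, scaled by TMM) in the 6 libraries. At a common depth of 250000 reads per nucleus, the median number of genes detected was 5406 against 5662 at G0, 6057 against 6009 at G14.5 and 6746 against 6702 at P7L (perfusion against liver tissue). The 2 preparations thus gave nearly the same number of genes once depth was equal. The table counts reads and not molecules, and nuclei of a library are not replicates. All binomial intervals below therefore cover counting error only.

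Each library was itself split. Nuclei were ordered by their running number in the table, and the break was set where the widely detected genes shifted most. This gave 2 runs of 85 to 164 consecutive nuclei in each library. The search sets exactly 1 break in every library, so further breaks and a gradual drift were not examined. The squared shift was averaged over 5696 to 7475 genes and scaled by the variance. At the break it was 11.2 in the G0 liver tissue library and 3.11 to 6.44 in the others. The lowest value over all splits with at least 15 nuclei on each side was 1.08 to 1.34. The break has the highest value of the same search by construction. The labels do not say what separates the runs, and they were not treated as replicates. They matter because the 2 runs of 1 library could differ by more than the 2 preparations did. Values of both runs, or whether they overlap between preparations, are therefore given beside the main results, with no test. This check was added after seeing the data.

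Across 15015 genes, no gene differed between preparations at an adjusted p below 0.05 in edgeR's quasi-likelihood test with stage as a covariate (0.0% called, smallest adjusted p 0.444). At an unadjusted p below 0.05, 342 genes were higher in perfusion (2.28%) and 365 were lower (2.43%). DESeq2, run as an alternative on the same sums, called 87 genes (0.579%), 40 higher and 47 lower. The design is small, with 2 residual degrees of freedom and a common coefficient of variation of 0.357 between libraries. Counts of list members below are read against these backgrounds and against 2 others: 13.1% of genes were higher at all 3 stages and 12.7% lower at all 3, and 2.28% had every perfusion library above every liver tissue library, 2.76% every one below.

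Immediate early genes were the stress group that stood highest in perfusion. The 30 listed genes took 690.3 reads per 1000000 reads of the library (RPM, unscaled) in G0 liver tissue and 922.5 in G0 perfusion. The values were 348.3 against 517.4 at G14.5 and 384.7 against 773.9 at P7L. Perfusion was thus higher at each stage, by 0.42, 0.57 and 1.01 on the log2 scale (mean 0.67 ± 0.31, SD, n = 3 stages), and an exact permutation test within stages gave p = 0.25, the smallest that 8 exchanges allow. Of the 25 members tested, 8 were higher at an unadjusted edgeR p below 0.05 and 0 were lower, 10 were higher at all 3 stages and 0 lower at all 3, and 2 (Dusp1 and Atf3) did not overlap between preparations. The median log2 fold change of the list was 0.55, against 0.01 over all genes. Named genes and lists were chosen with earlier results of these data known, so these counts describe the list and do not test it.

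Dusp1, a phosphatase that switches off MAP kinases, and Zfp36, an RNA-binding protein that speeds the decay of inflammatory mRNAs, carried the group together with Klf10, a TGF-beta-inducible transcription factor. Dusp1 lies at chr17:26505591-26508472 and Zfp36 at chr7:28376784-28379228 (GRCm38). Their promoters are printed because classic response elements of immediate early genes are found in them; each runs from 250 bases before to 50 bases after the RefSeq start (GRCm38.p6), on the minus strand. Capitals in Dusp1 (chr17:26508423-26508722) mark a cAMP response element, TGACGTCA, 143 bases before the start, and capitals in Zfp36 (chr7:28379179-28379478) mark a CArG box, the serum response factor motif, 58 bases before the start.
Dusp1: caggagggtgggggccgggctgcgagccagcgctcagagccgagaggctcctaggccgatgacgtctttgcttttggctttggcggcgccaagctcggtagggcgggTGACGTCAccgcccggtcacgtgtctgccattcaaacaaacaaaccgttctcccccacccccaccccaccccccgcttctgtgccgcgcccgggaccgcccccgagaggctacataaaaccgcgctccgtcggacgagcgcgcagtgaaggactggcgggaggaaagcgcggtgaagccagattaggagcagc
Zfp36: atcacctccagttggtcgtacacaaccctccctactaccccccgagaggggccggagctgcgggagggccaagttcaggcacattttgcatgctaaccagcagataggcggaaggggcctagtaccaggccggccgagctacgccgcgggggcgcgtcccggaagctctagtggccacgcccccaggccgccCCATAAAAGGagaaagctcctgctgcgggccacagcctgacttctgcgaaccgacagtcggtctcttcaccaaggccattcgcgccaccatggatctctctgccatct
Searched on both strands, the cAMP response element was in 1.79% of 32851 mouse promoters of this length and the CArG box in 1.63%. Of the 25 immediate early genes with a promoter in the RefSeq table, 3 held the first (Btg2, Dusp1 and Maff) and 1 held the second (Zfp36). A match describes these letters and shows no binding.

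Dusp1 was at 25.6, 9.46 and 9.33 CPM in liver tissue at G0, G14.5 and P7L and at 59.8, 28.4 and 28.0 CPM in perfusion. The lowest perfusion library lay above the highest liver tissue library, although the G0 liver tissue library came close to the 2 later perfusion libraries. The log2 fold change was 1.46 ± 0.20 (SE; edgeR adjusted p = 0.444, DESeq2 adjusted p = 4.37e-10). Zfp36 was at 65.9, 31.5 and 43.1 CPM in liver tissue and 117.0, 62.9 and 126.1 CPM in perfusion, a log2 fold change of 1.12 ± 0.18 (edgeR adjusted p = 0.625). Its perfusion value was higher at each stage, but the G14.5 perfusion library lay below the G0 liver tissue library. Klf10 was at 163.7, 58.4 and 96.6 CPM in liver tissue and 245.6, 111.7 and 208.7 CPM in perfusion (log2 fold change 0.88 ± 0.14, edgeR adjusted p = 0.625). By run, both perfusion runs of Zfp36 were above both liver tissue runs at G14.5 and P7L and overlapped them at G0. For Klf10 they were above only at P7L, and overlapped at G0 (253 and 113 RPM in liver tissue, 503 and 43.1 in perfusion) and at G14.5 (30.4 and 74.8, 44.7 and 141).

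The dissociation markers most often used, Fos and Egr1, behaved less evenly. Fos, a subunit of the AP-1 transcription factor, was at 1.68, 0.12 and 0.14 CPM in liver tissue and 15.1, 1.14 and 0.19 CPM in perfusion, so the difference lay at G0 and G14.5 and was small at P7L. Without the top nucleus of each library, Fos at G14.5 was at 0.354 RPM in perfusion and 0.0265 in liver tissue. The log2 differences were then 2.895, 0.698 and 0.074 at G0, G14.5 and P7L. Egr1, a zinc finger factor, was at 120.4, 21.5 and 8.65 CPM in liver tissue and 170.4, 34.4 and 28.6 CPM in perfusion. Its level followed stage more than preparation, with both G0 libraries above the 4 later ones. By run, the preparations were apart for Fos and Egr1 only at G14.5. The DNA damage and growth arrest genes Gadd45g (log2 fold change 1.23) and Gadd45b (1.16) and the stress factor Atf3 (1.497) were higher in perfusion at all 3 stages. Junb, Jun and Ier2 were lower in perfusion at G0 and higher at G14.5 and P7L: Junb was at 46.5, 7.83 and 13.4 CPM in liver tissue and 28.2, 16.1 and 57.1 CPM in perfusion. Nr4a1, Fosb, Klf2, Klf4 and Ier5l had too few reads to be tested.

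**Figure D1:**
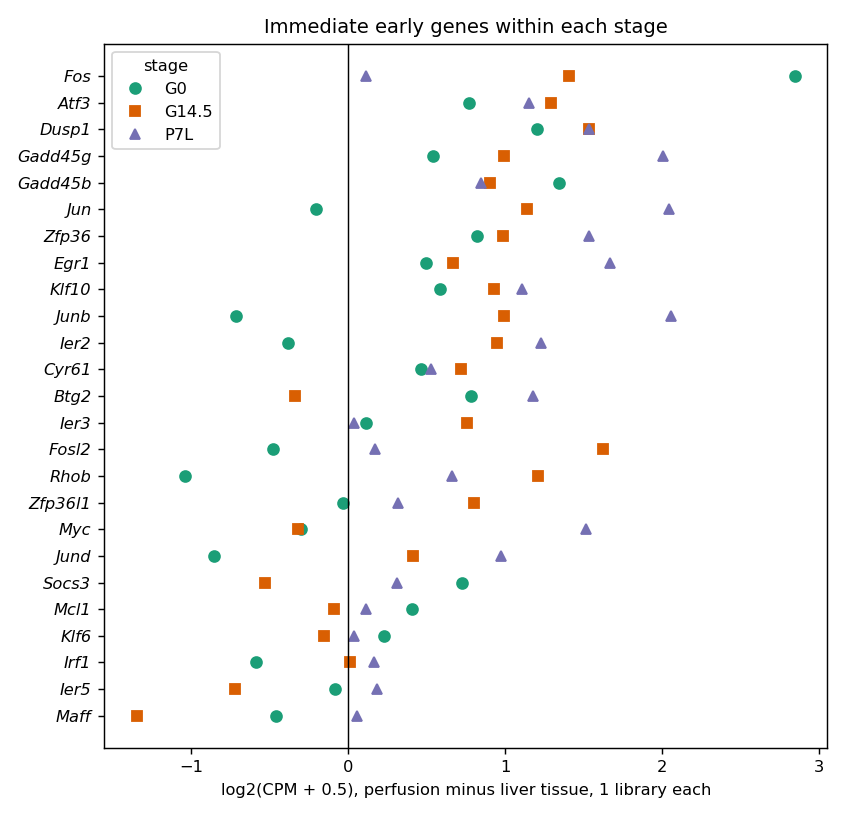
Difference in log2(CPM + 0.5) between perfusion and liver tissue (x axis) for each of the 25 tested immediate early genes (y axis), with 1 point per stage and 1 library of each preparation behind each point. Dusp1, Zfp36 and Klf10 lie to the right of 0 at all 3 stages, while Junb is at -0.71 at G0 and 2.06 at P7L.

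The higher immediate early signal was spread over most nuclei at the 2 later stages. Per nucleus, the median was 294 RPM in liver tissue and 471 in perfusion at G14.5, and 341 and 692 at P7L. At G0 the perfusion median (497, interquartile range 210 to 1610) was below that of liver tissue (582, 389 to 916), although the summed reads were higher in perfusion. The 2 runs of the G0 perfusion library differed: its first run had 1730 RPM of immediate early genes and its second 267, with 796 and 629 in the runs of G0 liver tissue. Dusp1 showed the same split at G0, with 132 and 2.37 RPM in the perfusion runs and 18.1 and 30.2 in the liver tissue runs. At G14.5 the perfusion runs (571 and 480) were both above the liver tissue runs (328 and 364), and at P7L (1020 and 466 against 460 and 327) they were too, by a narrow margin for the lower one. The G0 difference thus rested on 85 of its 184 perfusion nuclei.

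**Figure D2:**
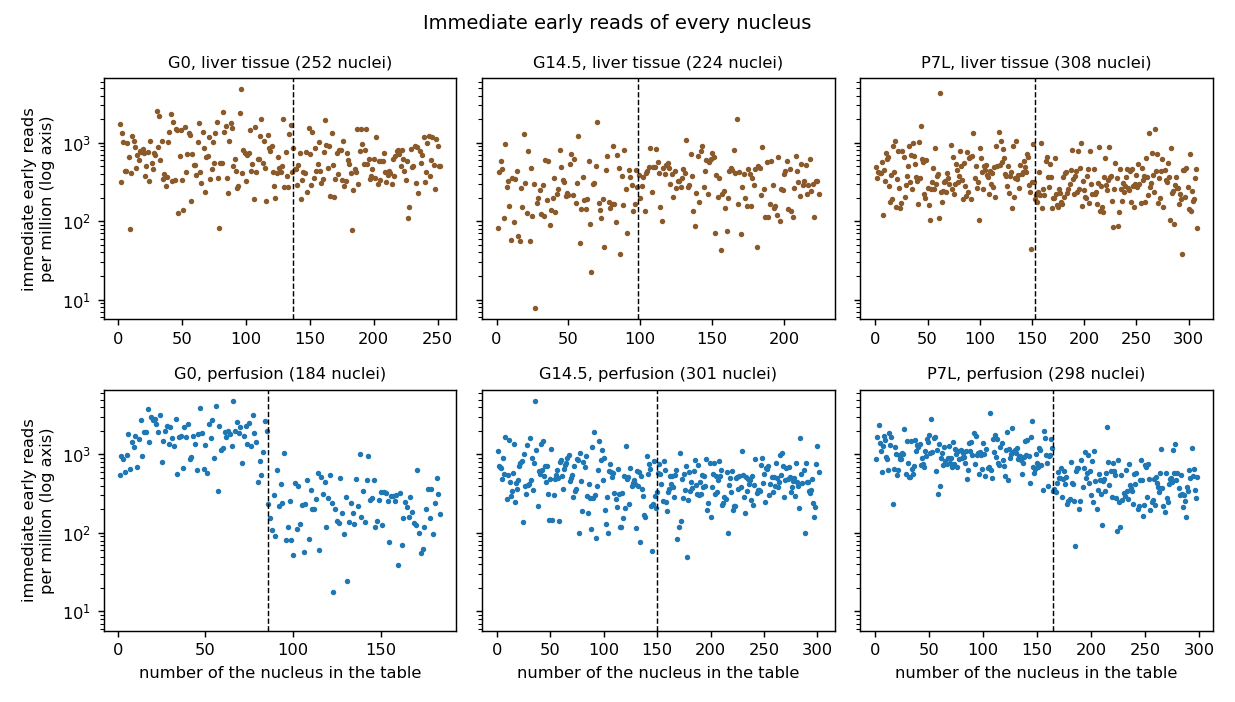
Immediate early reads (RPM, log axis) of every nucleus against its number in the table, with 1 panel per library and a dashed line at the break between the 2 runs. In the G0 perfusion panel the first run (1730 RPM) stands above the second (267), and in the other panels the 2 sides are closer.

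Metallothioneins, small cysteine-rich proteins that bind zinc and copper and are induced by metals, glucocorticoids and oxidative stress, were also higher in perfusion at each stage. Mt1 (chr8:94178883-94180327) was at 221.1, 599.7 and 376.6 CPM in liver tissue and at 404.5, 1004 and 673.9 CPM in perfusion, a log2 fold change of 0.82 ± 0.09 (SE). It had the smallest unadjusted p of all genes (3.7e-05; edgeR adjusted p = 0.444, DESeq2 adjusted p = 1.3e-05). The within-stage differences of 0.87, 0.74 and 0.84 were close to one another, while stages differed more than preparations, so the groups overlapped. Mt2 (88.8, 135.9 and 111.0 CPM in liver tissue, 116.5, 219.7 and 176.9 CPM in perfusion) and Osgin1, an NRF2 target (42.1, 141.2 and 41.9 against 56.6, 180.0 and 62.1 CPM), were higher by 0.59 and 0.45 on the log2 scale. The Mt1 promoter (chr8:94178839-94179138, plus strand, same window and build) is shown because its metal response elements are textbook examples. Capitals mark 3 copies of the core TGCNCNC, 1 before and 2 after the start used for this window. That start lies inside the gene span given above, which begins at 94178883, so these positions hold for that start only. Which start the nuclei used was not tested.
Mt1: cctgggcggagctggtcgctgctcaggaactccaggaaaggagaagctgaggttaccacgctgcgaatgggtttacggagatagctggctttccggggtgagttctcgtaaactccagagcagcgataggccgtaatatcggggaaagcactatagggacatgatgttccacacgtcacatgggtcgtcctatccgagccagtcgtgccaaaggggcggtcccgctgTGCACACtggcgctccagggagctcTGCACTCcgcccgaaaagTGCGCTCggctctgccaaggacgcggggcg
This short core is common and was in 51.0% of the 32851 promoters.

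Most other members of the oxidative stress list were mixed across stages. The 13 listed genes together were higher in perfusion by 0.22, 0.41 and 0.44 on the log2 scale, but by a mean of 0.146 instead of 0.358 without the member with the most reads. Of 11 members tested, 3 (Mt1, Mt2 and Osgin1) were higher at all 3 stages and at an unadjusted edgeR p below 0.05, 0 were lower, and 8 differed in direction between stages. Nqo1, a quinone reductase and NRF2 target, was at 11.6, 9.36 and 10.4 CPM in liver tissue and at 4.58, 3.84 and 10.8 CPM in perfusion. At G0 Mt1 and Mt2 together differed more between runs than between preparations, as the runs had 655 and 111 RPM in liver tissue and 1050 and 104 in perfusion. The runs of the 2 preparations overlapped at all 3 stages.

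Heat shock genes did not differ in 1 direction. The 27 chaperones and cochaperones took 0.112%, 0.110% and 0.104% of liver tissue reads and 0.126%, 0.0996% and 0.102% of perfusion reads. The mean log2 difference was 0.0036 ± 0.159 (SD, n = 3 stages), and of 24 members tested 2 were higher and 3 lower at all 3 stages. Hspa8, the constitutive HSC70 chaperone, was at 38.9, 55.4 and 37.8 CPM in liver tissue and 44.8, 52.2 and 47.4 CPM in perfusion. Stip1, a cochaperone linking HSP70 to HSP90, was the single member with an unadjusted p below 0.05 and was lower in perfusion (31.5, 47.8 and 45.4 against 16.8, 39.9 and 37.0 CPM).

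Hypoxia, unfolded protein, p53 and inflammation genes showed few differences. None of 16 hypoxia genes was higher or lower at all 3 stages, and the median log2 fold change was 0.06. The unfolded protein response (22 tested, median 0.16), p53 targets (13, median -0.06) and NF-kB and inflammation (13, median 0.17) each had 1 member higher at an unadjusted edgeR p below 0.05 and 0 lower. In the inflammation list this was Cxcl1, a neutrophil chemokine, at 20.9, 13.2 and 26.5 CPM in liver tissue and 49.3, 15.7 and 72.6 CPM in perfusion. Actin and serum response factor genes differed in both directions, with 2 higher and 3 lower of 16 at an unadjusted edgeR p below 0.05 and 11 of 16 in 1 direction at all 3 stages. Actg1, cytoplasmic gamma actin, was higher in perfusion (log2 fold change 1.35), and Tubb5, a beta tubulin, was lower (-0.92). Flna, an actin cross-linker at under 1 CPM, was at -1.46, but without the top nucleus of each library its log2 differences were -0.35, -0.37 and 0.032. The list shares plotted together show where the immediate early and metallothionein groups stand among the rest.

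**Figure D3:**
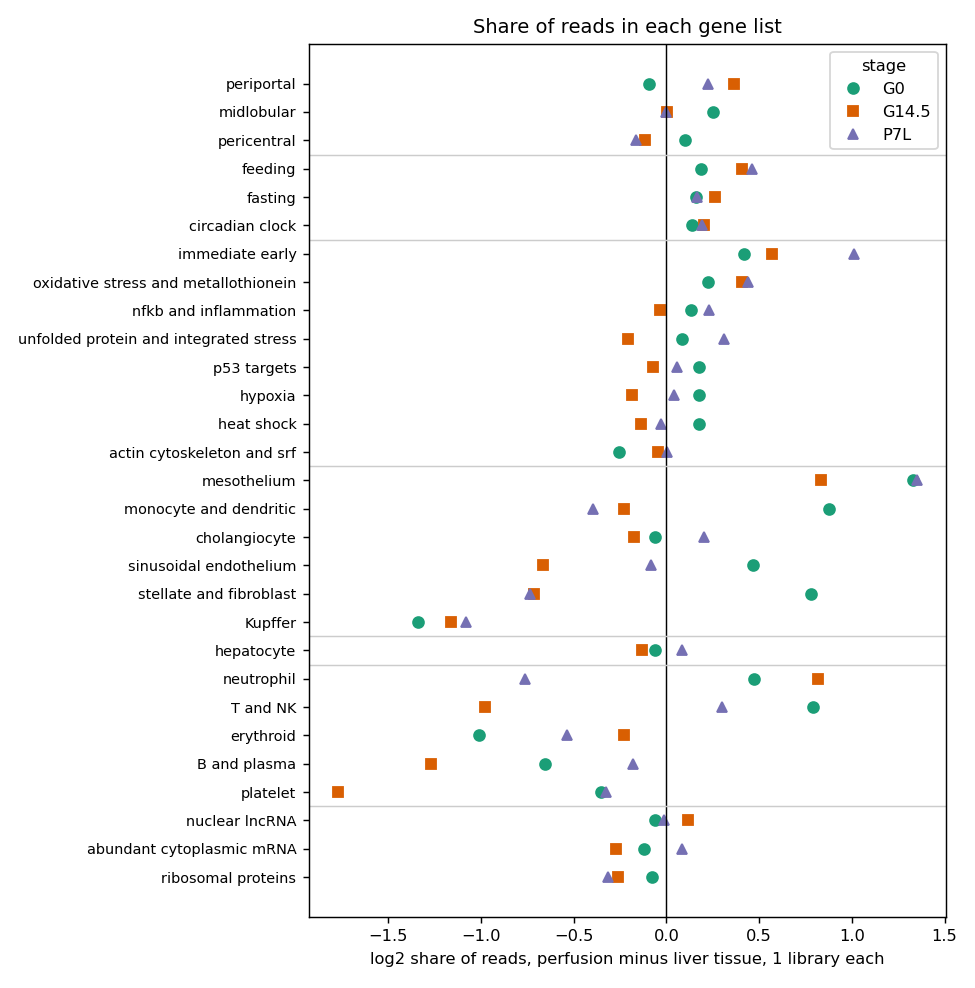
Log2 difference in the share of reads of each of 29 gene lists (y axis, grouped by family), perfusion minus liver tissue (x axis), 1 point per stage. Immediate early genes lie right of 0 at all 3 stages (0.42 to 1.01), Kupffer genes lie left of it (-1.34 to -1.08), and heat shock genes lie around it.

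Haemoglobin mRNA, a measure of blood RNA, differed most between the preparations among the groups compared here. Mature red cells have no nucleus and young ones are filled with globin mRNA, so globin reads mark red cell RNA and not hepatocyte RNA. The 4 adult globin genes took 8.98, 10.1 and 7.51 RPM in liver tissue at G0, G14.5 and P7L and 1.16, 1.10 and 0.315 in perfusion. Every perfusion library lay below every liver tissue library, and the log2 differences were -2.95, -3.21 and -4.58 (mean -3.58 ± 0.87, SD, n = 3 stages; exact permutation within stages p = 0.25, the smallest possible). Even in liver tissue globin was a trace, at most 0.00101% of reads.

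The beta globin Hbb-bs (chr7:103826523-103827928) was at 3.62, 4.55 and 2.99 CPM in liver tissue and at 0.159, 0.423 and 0.145 CPM in perfusion, a log2 fold change of -4.09 ± 0.55 (SE; edgeR adjusted p = 0.444, DESeq2 adjusted p = 7.11e-13). The alpha globin Hba-a1 (chr11:32283672-32284486) was at 3.93, 4.24 and 2.68 CPM and at 0.842, 0.507 and 0.0901 CPM (log2 fold change -3.35 ± 0.68). The 2 remaining globins, Hba-a2 (-3.18) and Hbb-bt (-3.96), pointed the same way. All 4 had an unadjusted edgeR p below 0.05 and no overlap between preparations, where 2.76% of all genes lay below without overlap. Their reads cannot be fully separated: the transcripts of Hba-a1 and Hba-a2 share an identical stretch of 415 bases and those of Hbb-bs and Hbb-bt one of 430. The whole erythroid list, in which Bpgm has the most reads, differed by -1.01, -0.23 and -0.54 in read share. Bpgm, an enzyme of red cell glycolysis that is also present in other cells, was at 6.296, 18.2 and 6.25 CPM in liver tissue and 6.301, 24.6 and 8.67 CPM in perfusion. Alas2 had 0 reads in every library, as did 19 of the 435 listed genes in the table, among them Srf, Rpl13 and Xist, which most cells of a female liver express. A 0 in this table therefore does not show absent expression.

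Globin reads were spread thinly over many liver tissue nuclei. With each nucleus thinned to 250000 reads, 36.7% (95% Clopper-Pearson interval 30.6 to 43.2), 51.3% (44.6 to 58.1) and 42.9% (37.1 to 48.7) of liver tissue nuclei had a globin read at G0, G14.5 and P7L, and 6.63% (3.47 to 11.3), 11% (7.69 to 15.1) and 2.70% (1.17 to 5.26) of perfusion nuclei. Without thinning the shares were 40.9%, 62.9% and 49.0% against 12.5%, 17.6% and 4.03%. Nuclei with reads of at least 3 erythroid genes made up 8.44%, 12.5% and 5.78% of liver tissue nuclei and 0.552%, 0.333% and 0.338% of perfusion nuclei, which is 1 nucleus in each perfusion library. The highest globin count in a nucleus was 611 reads, in G14.5 liver tissue, which was 22.8% of the globin reads of that library. The top nucleus of P7L liver tissue held 23.3%, and that of G0 liver tissue 8.43%.

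Here too G0 was divided by run. The first run of G0 liver tissue had 24.2 RPM of globin and its second 0.133, which was below both runs of G0 perfusion (0.243 and 1.90). At G14.5 (9.46 and 10.7 against 1.02 and 1.15) and at P7L (5.86 and 8.79 against 0.474 and 0.116) both liver tissue runs lay above both perfusion runs. The G0 difference thus rested on the first 136 of 252 liver tissue nuclei.

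**Figure D4:**
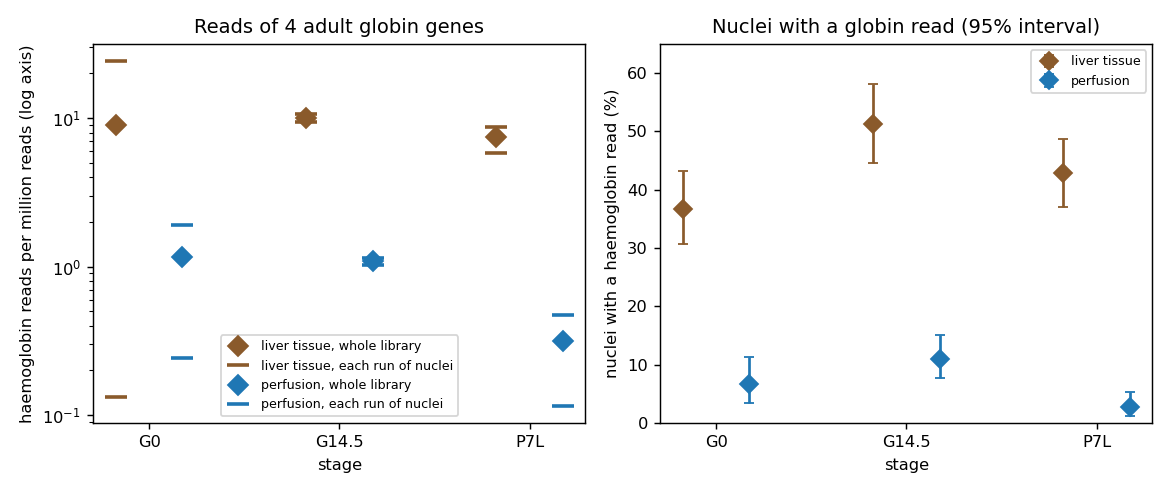
Left, globin reads (RPM, log axis) by stage, with diamonds for whole libraries and bars for the 2 runs of each; right, percent of nuclei with a globin read at 250000 reads, with 95% Clopper-Pearson intervals. Liver tissue lies between 7.51 and 10.1 RPM and perfusion between 0.315 and 1.16, and the runs overlap only at G0.

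White cell and platelet RNA was rare, and most of the listed genes had too few reads to be tested. Neutrophil, platelet, lymphocyte and plasma cell lists each took at most 0.00149% of reads in any library, and of the 12 neutrophil genes 8 were not tested for lack of reads. No nucleus had reads of 3 neutrophil genes after thinning in any library, which allows shares of up to 1.0% to 1.66%, the loosest for the 181 nuclei of G0 perfusion. Read shares of the neutrophil and of the T and NK cell lists differed in direction between stages. The B and plasma cell list was lower in perfusion at each stage, with log2 differences of -0.652, -1.27 and -0.181. Without the nucleus with the most reads of the list they were -0.374, -1.39 and -0.244. Its member Igkc, an immunoglobulin light chain, was lower in perfusion at all 3 stages (log2 fold change -3.43), but 86.2% of its G0 liver tissue reads lay in 1 nucleus. Without the top nucleus of each library the log2 differences of Igkc were -0.382, -0.598 and -0.488. Slpi, a secreted protease inhibitor of epithelia and leukocytes, was the gene with the largest difference upward among the 10 smallest p-values (0.0926, 0.112 and 0.0929 CPM in liver tissue, 2.32, 1.82 and 1.23 CPM in perfusion). Single nuclei held 78.3%, 58.0% and 86.6% of its perfusion reads, and without the top nucleus of each library the log2 differences were 0.80, 1.02 and 0.25. Wfdc17, a related inhibitor made by macrophages, went the other way (2.79, 2.23 and 1.81 CPM against 0.0874, 0.238 and 0.102 CPM, log2 fold change -4.11).

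Among other liver cells, RNA of Kupffer cells, the resident macrophages of the sinusoids, was lower in perfusion in the summed reads of every stage. Of 13 listed genes 12 were measured, and they took 26.6, 25.1 and 22.6 RPM in liver tissue and 10.5, 11.2 and 10.7 in perfusion. The groups did not overlap, and the log2 differences of the summed reads were -1.34, -1.16 and -1.08 (mean -1.20 ± 0.14, SD, n = 3 stages; exact permutation p = 0.25, the smallest possible). Of 12 members tested, 5 were lower at an unadjusted edgeR p below 0.05 and 0 higher, 8 were lower at all 3 stages, and 6 lay below without overlap. The median log2 fold change was -1.002. In sums over nuclei, fewer Kupffer cells and less Kupffer RNA per nucleus cannot be told apart.

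Clec4f, a lectin found on Kupffer cells, was at 4.18, 4.88 and 4.33 CPM in liver tissue and 1.23, 1.99 and 2.30 CPM in perfusion, a log2 fold change of -1.32 ± 0.42 (SE; edgeR adjusted p = 0.971). C1qc, a chain of complement C1q made by macrophages, was at 3.46, 2.78 and 1.33 CPM and at 0.155, 0.915 and 0.166 CPM (-3.01 ± 0.72; edgeR adjusted p = 0.971, DESeq2 adjusted p = 0.00564). Lyz2, lysozyme (-1.87), C1qb (-1.60), the scavenger receptor Marco (-1.18) and the complement receptor Vsig4 (-1.02) were also below without overlap. Csf1r, C1qa, Folr2 and Cd68 were mixed across stages. Marco turned to 0.04 when 13 marker-rich nuclei were left out, that is, nuclei with at least 3 genes of a list at 10 reads or more.

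Kupffer reads sat partly in a few nuclei and partly in many. The marker-rich nuclei included 4 rich in Kupffer genes, all in liver tissue, and without the 13 the mean log2 difference was -1.01. At 250000 reads, nuclei with at least 3 Kupffer genes made up 16.0%, 25% and 20.4% of liver tissue and 12.7%, 11.3% and 12.2% of perfusion nuclei at G0, G14.5 and P7L. At G0 the direction turned with at least 2 genes (32.1% against 35.4%) and without thinning (32.1% against 38.6%), while it held at the later stages. The median nucleus had 5.97 RPM of Kupffer genes in liver tissue and 5.68 in perfusion at G0, 10.7 and 4.17 at G14.5, and 11.7 against 4.69 at P7L, so at G0 the typical nucleus hardly differed. Both perfusion runs lay below both liver tissue runs at all 3 stages (50.9 and 12.4 against 11 and 10.1 at G0, 33.2 and 18.8 against 17.8 and 6.62 at G14.5, 20.5 and 24.2 against 8.93 and 12.9 at P7L, in RPM). Of the quantities compared by run, Kupffer RNA alone kept the 2 preparations apart at each stage.

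Sinusoidal endothelium, stellate cells and bile duct cells did not show a shared direction. Endothelial genes took 44.3, 60.9 and 47.4 RPM in liver tissue and 61.1, 38.4 and 44.8 in perfusion. The higher G0 perfusion value held Kdr, the VEGF receptor 2, of which 1 nucleus carried 90.2% of the reads, and leaving out the marker-rich nuclei gave a log2 difference of -0.03 in place of 0.47. Stab2, a scavenger receptor of these cells, was at 6.71, 7.56 and 8.61 CPM in liver tissue and 6.71, 5.70 and 5.76 CPM in perfusion. Stellate cell and fibroblast genes differed by 0.78, -0.71 and -0.73, with Dcn, decorin, at 3.39, 4.92 and 3.75 CPM in liver tissue and 3.47, 2.64 and 1.91 CPM in perfusion. Nuclei with at least 3 stellate genes were 25.3%, 26.8% and 26.2% in liver tissue and 28.2%, 10.7% and 16.9% in perfusion. Of 5 bile duct genes tested, Bicc1, an RNA-binding protein, was lower in perfusion at all 3 stages (2.85, 7.77 and 4.72 against 0.656, 3.25 and 2.36 CPM), with log2 differences of -0.41, -0.56 and -1.01 without the top nucleus of each library.

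The mix of zonal RNA was alike at G0 and more periportal in perfusion at G14.5 and P7L. For each nucleus a zonation index was taken as the reads of the pericentral genes (20 listed, 18 with a read) over the reads of these and 20 periportal genes, so a high index marks a central position. The median index was 0.320 (95% interval 0.288 to 0.347) in liver tissue and 0.312 (0.267 to 0.364) in perfusion at G0. It was 0.217 (0.177 to 0.252) and 0.114 (0.0963 to 0.148) at G14.5, and 0.205 (0.186 to 0.228) and 0.145 (0.126 to 0.163) at P7L. Intervals overlapped at G0 and were separate at the later stages, but they treat nuclei as the unit; over the 3 stages the mean difference was -0.057 ± 0.047 (SD), with exact permutation p = 0.25, the smallest possible.

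The shift lay at both ends of the index. Nuclei with an index below 0.1 made up 30.8% of liver tissue and 45.2% of perfusion nuclei at G14.5, and 17.9% and 29.5% at P7L. Nuclei above 0.5 made up 23.7% against 15.3% at G14.5 and 13.3% against 8.05% at P7L. G0 had more perfusion nuclei at both ends, 14.7% against 11.5% below 0.1 and 25.5% against 17.5% above 0.5, a wider spread with nearly the same median. By run, perfusion lay below liver tissue at G14.5 (0.116 and 0.113 against 0.218 and 0.213) and P7L (0.156 and 0.136 against 0.280 and 0.174), and the G0 perfusion runs (0.239 and 0.446) lay on either side of the liver tissue runs (0.336 and 0.282). Read depth and the index were nearly unrelated across the nuclei of a library (Spearman correlation -0.117 to 0.135), a description over nuclei that share a library.

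**Figure D5:**
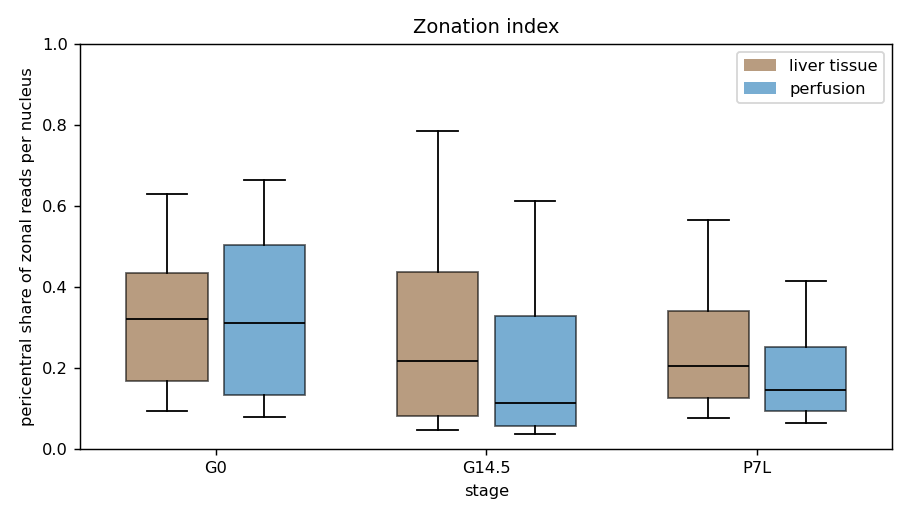
Zonation index of nuclei by stage (y axis, 0 to 1, pericentral share of zonal reads), with boxes from the lower to the upper quartile, the median as a line and whiskers at the 10th and 90th percentile. The medians are close at G0 (0.320 and 0.312) and lower in perfusion at G14.5 (0.114) and P7L (0.145).

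By list median, the genes behind the index differed more on the portal than on the central side at G14.5 and P7L. Of 20 periportal genes tested, 3 were higher in perfusion at an unadjusted edgeR p below 0.05 and 0 lower, 6 were higher at all 3 stages, and the list medians of the within-stage log2 differences were -0.13, 0.46 and 0.41. G6pc, glucose-6-phosphatase, the last step of glucose release, was at 210.3, 264.9 and 121.7 CPM in liver tissue and 277.9, 616.9 and 253.9 CPM in perfusion (log2 fold change 0.90 ± 0.17, edgeR adjusted p = 0.971). Asl, a urea cycle enzyme, was at 1551, 1165 and 2701 CPM and at 1576, 1806 and 3895 CPM (0.40 ± 0.13), and Hsd17b13, a lipid droplet enzyme, was higher by 0.32. Of 17 pericentral genes tested, 0 passed in either direction, with a list median of -0.05. Their medians of the within-stage log2 differences were 0.172, -0.175 and -0.215, so the central side was lower in perfusion at G14.5 and P7L. Cyp1a2, a drug-metabolising enzyme, was at 88.4, 42.9 and 97.1 CPM in liver tissue and 64.6, 28.0 and 97.1 CPM in perfusion. G6pc also stands in the fasting list below.

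Glul, glutamine synthetase, which is confined to the hepatocytes next to the central vein, did not follow the index. At 250000 reads, 26.2% (20.7 to 32.2), 43.3% (36.7 to 50.1) and 38.8% (33.2 to 44.6) of liver tissue nuclei had at least 5 Glul reads, and 27.1% (20.7 to 34.2), 46.3% (40.6 to 52.2) and 55.1% (49.2 to 60.8) of perfusion nuclei. The intervals overlapped at G0 and G14.5, and the share was higher in perfusion at P7L, where the index was lower. This cut passed 26.2% to 55.1% of the nuclei of a library, so it does not single out the layer next to the vein. With at least 50 reads the shares were 5.06%, 8.04% and 8.50% against 6.63%, 6.67% and 9.46%, and differences were small at each stage. The portal gene Cyp2f2, a cytochrome P450, reached 5 reads in 54.9%, 42.4% and 68.0% of liver tissue nuclei and in 49.2%, 45.7% and 74.7% of perfusion nuclei. At 5 reads the Glul share was higher in perfusion at all 3 stages, by 0.911, 3.03 and 16.3 percentage points (exact permutation p = 0.25, the smallest possible), and at 1 or 50 reads or without thinning G14.5 turned. The Cyp2f2 share was higher at 2 of 3 stages.

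Some genes of glucose and fat metabolism were higher in perfusion, from both the fed and the fasted programme. Thrsp, the lipogenic protein Spot 14, was at 493.3, 2978 and 1259 CPM in liver tissue and 1109, 4653 and 2366 CPM in perfusion (log2 fold change 0.91 ± 0.11; edgeR adjusted p = 0.444, DESeq2 adjusted p = 0.972). Of 11 feeding genes tested 4 were higher (Thrsp, Acly, Fasn and Pnpla3) and 1 lower (Scd1) at an unadjusted edgeR p below 0.05, and of 13 fasting genes 3 were higher (G6pc, Igfbp1 and Angptl4) and 0 lower. Direction differed between stages for 6 of the feeding and 7 of the fasting genes, and the mean log2 difference in the read share of feeding genes was 0.352, or 0.0908 without the member with the most reads. Igfbp1, an insulin-repressed binding protein, was at 35.8, 231.1 and 43.4 CPM in liver tissue and 91.6, 333.6 and 74.1 CPM in perfusion, and its runs overlapped at all 3 stages. At G0 the runs of both preparations overlapped for Thrsp (1010 and 198 RPM in liver tissue, 2190 and 263 in perfusion), as they did for G6pc, and at G14.5 and P7L both perfusion runs were above for both genes. The labels give no time of day or feeding state, and their part in the result was not tested.

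Clock genes were mixed, with some members higher in perfusion. Of 16 tested, 4 were higher at an unadjusted edgeR p below 0.05 and 0 lower, 5 were higher at all 3 stages, and 11 differed in direction between stages, among them Arntl, Clock, Per1 and Cry1 of the core loop. Bhlhe40, a clock repressor that is also an early response gene, was at 248.2, 114.8 and 161.1 CPM in liver tissue and 351.6, 191.4 and 303.9 CPM in perfusion (log2 fold change 0.72 ± 0.12, edgeR adjusted p = 0.746), with runs apart only at P7L. Nr1d1, the repressor REV-ERB alpha, was at 10.19, 5.82 and 9.73 CPM and at 14.45, 12.05 and 17.7 CPM, with no overlap. Without the top nucleus of each library, Nr1d1 was at 9.54, 4.54 and 9.86 RPM in liver tissue and 12.2, 8.28 and 18.0 in perfusion. It was then still higher at each stage, but the preparations overlapped. The share of reads in the whole list was higher by 0.14, 0.20 and 0.19 on the log2 scale, a mean of 0.178, and by a mean of 0.0799 without the member with the most reads.

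Among genes with at least 20 CPM in liver tissue and reads in at least 20% of its nuclei, those lower in perfusion by most at all 3 stages came from outside the lists. Stard8, a lipid-binding START domain protein, was at 28.9, 20.2 and 29.3 CPM in liver tissue and at 14.4, 8.60 and 13.5 CPM in perfusion, with no overlap and within-stage log2 differences of -0.98, -1.19 and -1.09 (log2 fold change -1.12 ± 0.21; edgeR adjusted p = 0.971, DESeq2 adjusted p = 1.3e-05). Without the top nucleus of each library, Stard8 was at 21.9, 9.82 and 28.6 RPM in liver tissue and 9.65, 5.79 and 12.6 in perfusion. It was then still lower at each stage, by log2 differences of -1.145, -0.714 and -1.152, but the preparations overlapped. Fam96a, a cytosolic iron-sulphur assembly factor, was at 38.3, 23.6 and 30.1 CPM and at 20.1, 13.7 and 17.3 CPM (-0.84 ± 0.20). Cd81, a tetraspanin, was at 40.3, 98.8 and 56.0 CPM against 16.8, 70.6 and 39.2 CPM. Fbxo46, Cep97, Commd6, Zfp64, Polr1d, Ccdc104 and Ppp1cc completed the group, with log2 fold changes from -0.75 to -0.52. Gmppa, which regulates GDP-mannose synthesis, was higher (19.1, 26.4 and 14.8 against 31.1, 39.7 and 22.3 CPM).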

How the data were processed

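Reads of 1567 nuclei were summed over the nuclei of each of the 6 libraries, taking library and preparation from the column names. The authors deposited raw read counts per gene (40824 genes without spike-ins, 24953 with a read). The submitters' processing notes list Trimmomatic (version 0.39), HISAT2 (version 2.1.0) and featureCounts (version 1.5.3) and name the build as mm10, which is GRCm38. A second deposited table held TPM-like values (sums of 100214 to 134901 per nucleus) and served as an alternative. Strand use in counting is not given in the sources used here, so reads of overlapping genes cannot be told apart.

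A gene was tested where it passed edgeR's expression filter and had a read in at least 5% of nuclei of 2 libraries, which left 15015 genes. The main test was edgeR 4.0.16 (R 4.3.3), a two-sided quasi-likelihood F test with TMM scaling, stage and preparation as terms and Benjamini-Hochberg adjustment over all tested genes; CPM are TMM-scaled and differences within a stage use log2(CPM + 0.5). Tools for alternatives were DESeq2 1.42.0 and limma 3.58.1. The edgeR test was checked on simulated data. Single values per library were compared by an exact permutation of preparations within stages (8 exchanges, two-sided, smallest p 0.25). For shares of nuclei every nucleus was thinned to 250000 reads, and 35 with fewer reads were left out, at most 15 in a library. No doublet caller was run. Nuclei with at least 100 zonal reads entered the zonation index. Summed reads limit detection: 3 reads correspond to 0.0079 to 0.0133 CPM per library.

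Members and gene lists were chosen with earlier results of these data known. Named genes were the 10 with the smallest p, those higher or lower by most at all 3 stages (at least 20 CPM, reads in 20% of nuclei), and up to 4 members of each list by p and 3 by level. One gene that this rule names is not reported here. Fos, Gadd45b, Jun, Junb, Ier2, Marco, Kdr, Hspa8, Cyp2f2 and other list members outside this rule were named after their values were seen. Promoter sequences are from RefSeq (GRCm38.p6). Haemoglobin transcript sequences are from a separate reference transcript set, with the longest transcript taken for each gene.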

Additional observations from a re-analysis of the deposited data

Results flagged for a closer look

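Among the list shares and the genes followed through every alternative, 5 quantities stood out because the within-stage difference between perfusion and liver tissue pointed in opposite directions at different stages by more than 0.5 on the log2 scale. Other list members did so too, such as Folr2 (-2.078 at G0, 0.846 at G14.5) and Ecm1 (1.871 at G0, -0.643 at G14.5). With 1 library per stage and preparation, the difference between stages was not tested. The stellate and fibroblast read share differed by 0.777 at G0 and by -0.734 at P7L. The T and NK cell share differed by 0.793 at G0 and by -0.975 at G14.5, and the neutrophil share by 0.819 at G14.5 and by -0.76 at P7L, all at most 0.00149% of reads. Junb, an AP-1 subunit, differed by -0.713 at G0 and by 2.06 at P7L. Its runs had 25.2 and 59.1 RPM in G0 liver tissue and 51.0 and 10.4 in G0 perfusion, so at G0 the preparations overlapped by run. Kdr, the VEGF receptor 2 of endothelium, differed by 2.66 at G0 and by -0.556 at G14.5, and 1 nucleus held 90.2% of its G0 perfusion reads.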

How the results depend on the processing

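No gene was called under the edgeR and limma alternatives, with smallest adjusted p-values from 0.165 to 1.0, and DESeq2 called 87; 231 genes had an unadjusted p below 0.05 without the stage term and 536 to 1153 did when 1 library was left out, the most without a G0 library. Leaving out a library leaves its partner at that stage without weight on the preparation term. The stage term pairs the libraries, and no further paired analysis was possible because the labels give no replicate numbers. The mean log2 difference in read share of the oxidative stress list was 0.146 without its member with the most reads, against 0.358. For Kupffer genes it was -0.916 as the median over nuclei and -1.01 without the 13 marker-rich nuclei, an alternative chosen after seeing the data, against -1.20. The direction of the share of Kupffer nuclei at G0 turned under 2 alternatives (given above). The mean zonation difference was -0.118 with every gene scaled to the same mean, and without the member of each list with the most reads the G0 difference was 0.0029. Marco turned to 0.04 without the marker-rich nuclei, and Kdr to -0.36 without them and to -0.64 and -0.63 without either G0 library (up to 1.24 without another library). Glul turned to -0.09 in thinned nuclei and to -0.24 and -0.27 in the authors' TPM-like values (pseudocounts 1 and 0.1). Over 17 alternatives the log2 fold change was 1.01 to 1.59 for Dusp1, 0.69 to 0.86 for Mt1, 0.77 to 1.04 for Thrsp, -4.44 to -1.27 for Hbb-bs, -3.74 to -0.54 for C1qc and -1.18 to -0.41 for Stard8. Adjusted p-values for these 6 genes ran from the DESeq2 value given above (0.165 for Thrsp, without G0 perfusion) up to 1.0. The causes were not tested. Most genes of the neutrophil, platelet and lymphocyte lists had too few reads to be tested, and whether depth or the counting of these genes limits them was not tested.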

Other observations

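RNA expected mainly in the cytoplasm was slightly lower in perfusion for 1 class. The 30 ribosomal protein genes took 600.3, 624.1 and 653.1 RPM in liver tissue at G0, G14.5 and P7L and 568.5, 520.3 and 524.5 in perfusion. Of 29 tested, 13 were lower at all 3 stages and 0 higher, against 12.7% and 13.1% of all genes, and 4 lay below without overlap. Rplp0, a protein of the ribosomal stalk, was at 16.0, 26.1 and 22.2 CPM in liver tissue and 6.69, 19.5 and 14.1 CPM in perfusion (log2 fold change -0.78, edgeR adjusted p = 0.971). By run, the preparations were apart at P7L (660 and 647 against 574 and 463 RPM) and overlapped at G0 and G14.5. Abundant secreted-protein and enzyme mRNAs gave no such direction, with 4 of 19 tested higher and 6 lower at all 3 stages, and of 9 nuclear long noncoding RNAs tested none was higher or lower at all 3.

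Mesothelial genes, which mark the capsule of the liver, differed by 1.33, 0.83 and 1.35 on the log2 scale, but at 0.0000372% to 0.000132% of reads, with 1 of 5 genes tested. Without the nucleus with the most reads of the list in each library, the differences were 0.975, 0.0108 and 1.24. Platelet genes differed by -0.35, -1.77 and -0.33, with 1 of 8 tested, and by -1.19, -0.356 and -0.364 without such nuclei.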
